A study of Mus musculus with 30 samples.

Results

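Mouse macrophages that received all-trans retinoic acid (ATRA) at 1 uM in culture were compared with macrophages cultured alone. The comparison took the 3 libraries whose titles name ATRA and the 3 whose titles name culture without an addition, 6 of the 30 libraries of the series, and followed all 17774 genes that passed the low count filter. PolyA RNA was sequenced from cells that had been sorted as F4/80-positive straight into lysis buffer, with 25000 cells behind each of the 6 libraries. Values are also given for 3 libraries of co-culture macrophages, grown with podoplanin-positive (PDPN+) stromal cells of the omentum. A further 3 libraries are of macrophages analysed ex vivo, whose source names give a lavage. The fit took its estimate of the spread from 18 macrophage libraries. Besides the groups above, these include 3 labelled BMS493 (1 uM) and 3 labelled transwell. The sources used here give no strain, sex, age, culture time or solvent, and nothing in the labels says whether replicates came from separate animals or cultures, so each p value speaks of the variation among these libraries and no further.

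ATRA is the active form of vitamin A. Retinaldehyde dehydrogenases make it inside cells, and it binds nuclear receptors of the RAR family, which sit on DNA as pairs with RXR and exchange corepressors for coactivators when the ligand arrives. Cells keep the signal in check by inducing the CYP26 enzymes, which break retinoic acid down. In the macrophages that live in the peritoneal cavity, retinoic acid is known to maintain Gata6, the transcription factor behind their resident programme.

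The DNA motif that RAR and RXR pairs are best known to bind is a direct repeat of a 6-base half-site with a 5-base gap. The half-sites searched were AGGTCA and AGTTCA, together with the variants GGGTCA and GGTTCA. A search for any 2 of them in that spacing, on both strands of RefSeq promoter windows (GRCm38.p6, 250 bases before to 50 bases after the start), found it in 0.0974% of 32851 windows. Of the genes higher with ATRA, 37 had a window, and the repeat was present in 2 of them, Rarb and Cyp26a1. It was present in 8 of 11657 tested genes with a window (0.0686%), which include these 2. The half-sites searched include those of both repeats, so the counts describe this search and do not test enrichment. The stretches of Rarb and Cyp26a1 are shown because they hold the repeat. These genes are the receptor and the breakdown enzyme described below. Capitals mark the half-sites.
Rarb, chr14:16575487-16575596, minus strand: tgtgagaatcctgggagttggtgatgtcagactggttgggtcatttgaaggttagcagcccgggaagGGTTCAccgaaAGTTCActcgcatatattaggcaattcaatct
Cyp26a1, chr19:37697688-37697797, plus strand: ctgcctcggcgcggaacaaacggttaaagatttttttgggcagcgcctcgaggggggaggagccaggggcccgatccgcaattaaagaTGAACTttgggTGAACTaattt
The Rarb repeat lies 53 to 37 bases before the RefSeq start and reads in the direction of the gene. The RefSeq start used for Rarb lies inside the longer gene model whose coordinates are given below, and not at its upstream end. The Cyp26a1 repeat lies 32 to 16 bases before the start and reads on the other strand. With a gap of 2 bases the repeat was in 0 of the 37 windows and in 0.12% of tested genes with a window. With a gap of 1 base it was in 1 of the 37, that of the non-coding gene Platr26, and in 0.317% of tested genes with a window. A match is a description of these letters and not a site shown to be bound.

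ATRA raised the gene that breaks retinoic acid down, 1 of its receptors, 1 of its synthesis enzymes and a nuclear receptor corepressor, together with Gata6 and part of the cavity macrophage programme. Of the genes tested 58 differed (0.326%), with 50 higher with ATRA (0.281%) and 8 lower (0.045%), at an adjusted p under 0.05 in the edgeR quasi-likelihood test with Benjamini-Hochberg adjustment, from which every adjusted p below comes. All 50 and all 8 separated the 3 ATRA libraries from the 3 alone libraries, and so pointed the same way within each of the 3 processing batches. Among all genes tested, 4.77% had all ATRA libraries above all alone libraries and 4.15% had them below. The calls rest on these same libraries, so the separation describes the called genes and is no further support for them. The median fold was 6.10 among the genes that rose and 3.77 among those that fell. A fit with the batch as a block called 143 genes (0.805%), 119 higher (0.67%) and 24 lower (0.135%), including all 58. At an unadjusted p under 0.05, 7.6% of genes differed. The 58 calls became 17 without alone replicate 2, 22 without ATRA replicate 2 and 3 in a fit of only these 6 libraries.

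**Figure D1:**
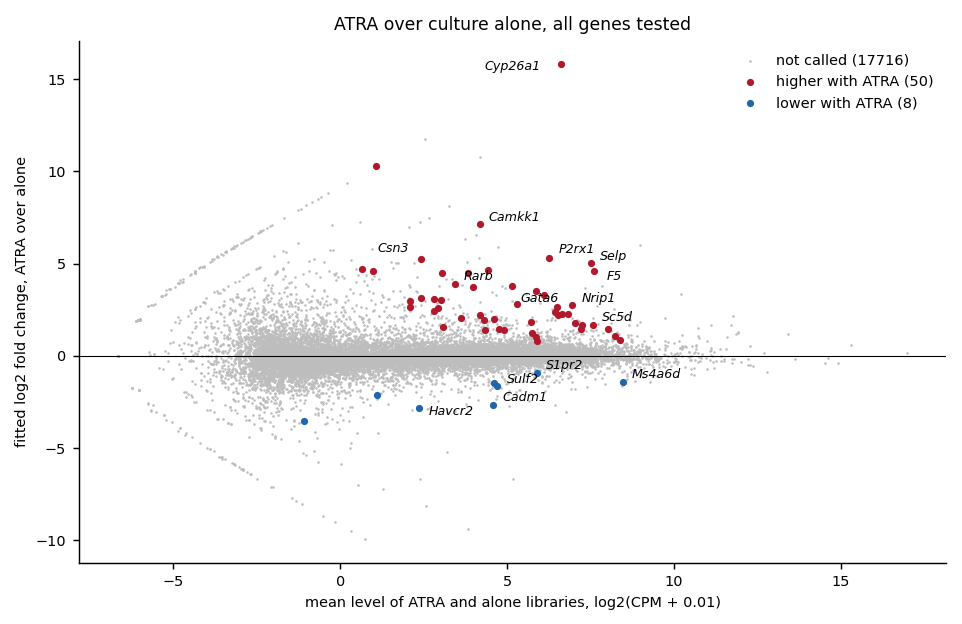
Fitted log2 fold change of ATRA over culture alone (vertical axis) against the mean level of the 6 libraries on a log2 scale (horizontal axis), 1 point for each of 17774 genes tested. The 50 genes higher with ATRA are red and the 8 lower are blue. Cyp26a1 stands at a fitted 15.80, but it had no count in any alone library. This size is thus set by the fit, and the text gives a floor instead.

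The RNA of the 6 libraries was deep and of like quality. Total counts ran from 29769558 to 54099085, and RNA integrity numbers from 9.5 to 9.8 with ATRA and from 9.2 to 9.8 in culture alone. Adgre1, which encodes F4/80, was at 2436, 2652 and 3856 CPM in ATRA replicates 1 to 3 and at 2712, 2057 and 2151 CPM in alone replicates 1 to 3; CPM are counts scaled to a common library size. The summed level of 16 macrophage markers was 111530 to 208780 CPM with ATRA and 120950 to 171260 CPM alone. Of 62 tested markers of 9 cell types none passed the edgeR test or DESeq2, with 1 at an unadjusted p under 0.05. As edgeR called only 0.326% of all genes, this does not show equal composition. The 7 mast cell markers had a median log2 fold change of 2.41, with 4 higher and 0 lower within each of the 3 batches (16.1% and 16.6% of all genes tested). Only 2 of 9 granulocyte and 2 of 6 endothelial markers were tested. Replicate 3 of both groups, batch 340, stood apart: Serpinb2, an inhibitor of plasminogen activators, was at 447, 1491 and 10426 CPM with ATRA and at 35.9, 180 and 5934 CPM alone. In bulk RNA, fewer cells of a type and less RNA per cell cannot be told apart.

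Among the retinoid genes, Cyp26a1 (chr19:37697798-37701536 on GRCm38, plus strand), which oxidises retinoic acid, had 183, 330 and 71.6 CPM in the ATRA libraries and no count in any alone library. Against a floor of 3 counts over the alone group, this is at least 7532-fold higher (adjusted p = 0.0042). Its neighbour Cyp26c1 was at 0.817, 0.537 and 0.46 CPM with ATRA and also had no count alone, but missed the threshold (adjusted p = 0.102). Cyp26b1, the third of the enzymes, was at the edge of detection in both groups, with counts in 1 library of each.

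Rarb (chr14:16430839-16819156, minus strand), the RAR gene known to respond to its own ligand, was at 11.6, 22.3 and 27.0 CPM with ATRA and at 0.776, 0.931 and 2.39 CPM alone, a 14.9-fold rise (log2 fold change 3.90, SE 0.47, adjusted p = 0.00206). The lowest ATRA library lay well above the highest alone library, and the log2 difference within batches was 3.25, 4.0 and 3.25. None of the other 5 receptors passed the test. Rara averaged 12.3 ± 2.48 CPM with ATRA and 13.7 ± 2.46 CPM alone (SD, n = 3 each), Rarg 8.52 ± 3.08 and 5.64 ± 1.77 CPM, and Rxra 35.4 ± 15.2 and 42.8 ± 14 CPM, each pair overlapping. The Rarb gene model overlaps Top2b on the opposite strand, whose log2 fold change was 0.65 (adjusted p = 0.729), and the strand setting of the counts is not given in the sources used here.

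Aldh1a2 (chr9:71215789-71296243, plus strand), which makes retinoic acid from retinaldehyde, had 18, 31.1 and 32.2 CPM with ATRA and 1.64, 0.466 and 1.52 CPM alone. It rose 22.6-fold (log2 fold change 4.50, SE 0.55, adjusted p = 0.00206) and was the only one of 7 tested synthesis genes to pass. The list's median log2 fold change was -0.03, against -0.0064 over all genes tested. Nrip1 (chr16:76287400-76373827, minus strand), a corepressor that binds nuclear receptors in the presence of their ligand, was at 211, 286 and 151 CPM with ATRA and at 42.9, 26.5 and 27.6 CPM alone. This 6.68-fold rise (log2 fold change 2.74, SE 0.27, adjusted p = 0.000298) was the only one among 10 tested corepressors and coactivators. Their median was 0.20.

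Other genes tied to retinoic acid by textbook knowledge moved less clearly. Dhrs3, which turns retinaldehyde back into retinol, was at 414, 482 and 211 CPM with ATRA and at 241, 267 and 100 CPM alone; it was higher within each batch by 0.78, 0.85 and 1.07 on the log2 scale, yet the groups overlapped (adjusted p = 0.601). Tgm2, the tissue transglutaminase gene, was at 1014, 604 and 443 CPM with ATRA and at 176, 94.7 and 124 CPM alone, with no overlap (log2 fold change 2.39, SE 0.55, adjusted p = 0.106). Of 20 tested members of the list of further targets, 0 were called in either direction by edgeR and 2 were called higher by DESeq2. At an unadjusted p under 0.05, 5 were higher, while 7.6% of all genes tested differed in either direction. The median log2 fold change was 0.52. With the batch as a block, 2 of them were called higher, Rai14 (adjusted p = 0.0366) and Egr1 (adjusted p = 0.037). Over all genes tested, 0.67% were called higher with the block. Hoxa5 and Hoxb4, classic targets in the embryo, averaged 0.262 and 1.22 CPM with ATRA and 0.0207 and 1.05 CPM alone.

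**Figure D2:**
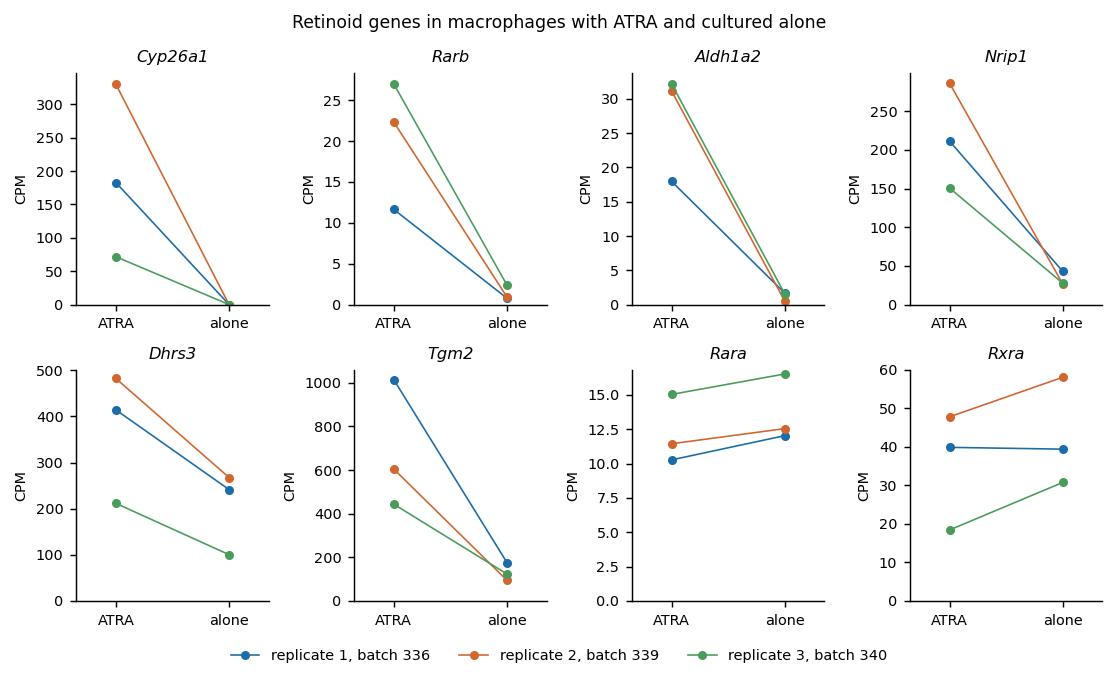
Level in CPM (vertical axes, linear, from 0) of 8 retinoid genes in the ATRA library (left) and the alone library (right) of each batch, 1 line per batch. Cyp26a1, Rarb, Aldh1a2 and Nrip1 passed the test, and in each of them all 3 ATRA points lie above all alone points; Dhrs3, Tgm2, Rara and Rxra did not pass.

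In the cavity macrophage programme 4 of 36 tested members rose and 0 fell in the edgeR test, while 0.281% of all genes rose. At an unadjusted p under 0.05, 15 members were higher and 0 lower, while 7.6% of all genes tested differed in either direction. DESeq2 called 10 members higher and 0 lower, and 250 higher and 77 lower over all genes. The 4 were Gata6, Selp, F5 and P2rx1. The list's median log2 fold change was 1.4, against -0.0064 over all genes tested. All ATRA libraries lay above all alone libraries in 11 members, and in 4.77% of all genes tested. Within each of the 3 batches 22 members were higher, as were 16.1% of all genes tested. The members were chosen with earlier results of these data known, so the count is a description of the list.

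Gata6 had 42.1, 71.5 and 83.8 CPM with ATRA and 3.26, 6.62 and 4.53 CPM alone. It rose 13.7-fold (log2 fold change 3.77, SE 0.54, adjusted p = 0.00509), and the 3 within-batch differences of 3.5, 3.34 and 4.07 lay close together. Selp (chr1:164115264-164150026, plus strand), which encodes the adhesion receptor P-selectin, was at 196, 497 and 375 CPM with ATRA and at 11.1, 8.75 and 13 CPM alone, 32.5-fold higher (log2 fold change 5.02, SE 0.43, adjusted p = 0.000131). It had the smallest p of all genes tested.

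F5, coagulation factor V, had 212, 636 and 282 CPM with ATRA and 18.5, 8.98 and 18.6 CPM alone (24.5-fold, adjusted p = 0.0123). P2rx1, a cation channel opened by ATP, had 85.8, 200 and 163 CPM with ATRA and 7.94, 2.08 and 1.52 CPM alone (38.9-fold, adjusted p = 0.00462). In both genes the ATRA libraries stood apart from the alone libraries, while the size of the gap differed between batches. The within-batch log2 differences of P2rx1 were 3.35, 6.28 and 6.34.

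Other members of the programme were higher with ATRA in the mean without passing the test. Alox15, a lipoxygenase of cavity macrophages, was at 1977, 3620 and 816 CPM with ATRA and at 464, 114 and 42.8 CPM alone (adjusted p = 0.347), and passed with the batch as a block (adjusted p = 0.0294). Naip1, a sensor of bacterial proteins, also passed only with the block (adjusted p = 0.043, against 0.0691 without it). Icam2, an adhesion molecule, was at 17.3, 38.5 and 106 CPM with ATRA and at 9.78, 16.7 and 24.8 CPM alone, so the groups overlapped in the lowest ATRA library. Timd4, a receptor for phosphatidylserine on dying cells, was higher within each batch by 1.66, 3.13 and 2.71, but spanned 19.2 to 152 CPM with ATRA and 2.51 to 48.0 CPM alone. Garnl3 averaged 38.8 ± 33.2 CPM with ATRA and 7.32 ± 3.91 CPM alone (SD, n = 3 each; adjusted p = 0.0851). Thbd, the thrombomodulin gene, and Tgfb2, a growth factor gene, were slightly lower in the mean with ATRA, at 15 ± 6.36 and 15.6 ± 12.3 CPM with ATRA and at 19.5 ± 10.2 and 17.2 ± 11.7 CPM alone.

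Levels in freshly isolated cells gave each change a scale. Against ex vivo macrophages, 2649 genes differed in ATRA macrophages (14.9%), 1515 higher (8.52%) and 1134 lower (6.38%). Of the 50 genes that rose over culture alone, 20 were above the ex vivo level, 8 were below it and 22 were not called in this second comparison, which uses the same ATRA libraries. The 2649 calls became 1713 without ATRA replicate 2 and 1626 without ex vivo replicate 2. Gata6 averaged 65.8 ± 21.4 CPM with ATRA and 59.9 ± 39.1 CPM ex vivo (log2 fold change 0.14, SE 0.48, adjusted p = 0.904). Aldh1a2 was likewise not told apart from ex vivo cells, at 27.1 ± 7.92 CPM with ATRA and 22.2 ± 11.8 CPM ex vivo.

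Selp reached 356 ± 152 CPM with ATRA and 915 ± 39.8 CPM ex vivo, and Rarb 20.3 ± 7.87 CPM with ATRA and 56.6 ± 12.5 CPM ex vivo; both were lower than ex vivo (adjusted p = 0.0225 and 0.0283). P2rx1 lay on the other side, at 149 ± 58.1 CPM with ATRA and 32.0 ± 3.34 CPM ex vivo (adjusted p = 0.0304), as did Nrip1 at 216 ± 67.9 and 111 ± 19.0 CPM (adjusted p = 0.0176). Other members stayed well below ex vivo cells. Icam2 averaged 54.0 ± 46.4 CPM with ATRA and 849 ± 79.7 CPM ex vivo, and Prg4, which encodes the lubricant proteoglycan 4, averaged 138 ± 117 CPM with ATRA and 3431 ± 134 CPM ex vivo (adjusted p = 0.000233 and 0.00433). The list was made of genes high in resident cavity macrophages, and in 32 of the 36 members the alone mean lay below the ex vivo mean. In 22 of the 36 the ATRA mean lay between the alone mean and a higher ex vivo mean. A high ex vivo mean is thus built into the list, and the share of all genes in this order was not counted. Against ex vivo, 8 members were called lower and 2 higher, as were 6.38% and 8.52% of all genes tested.

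**Figure D3:**
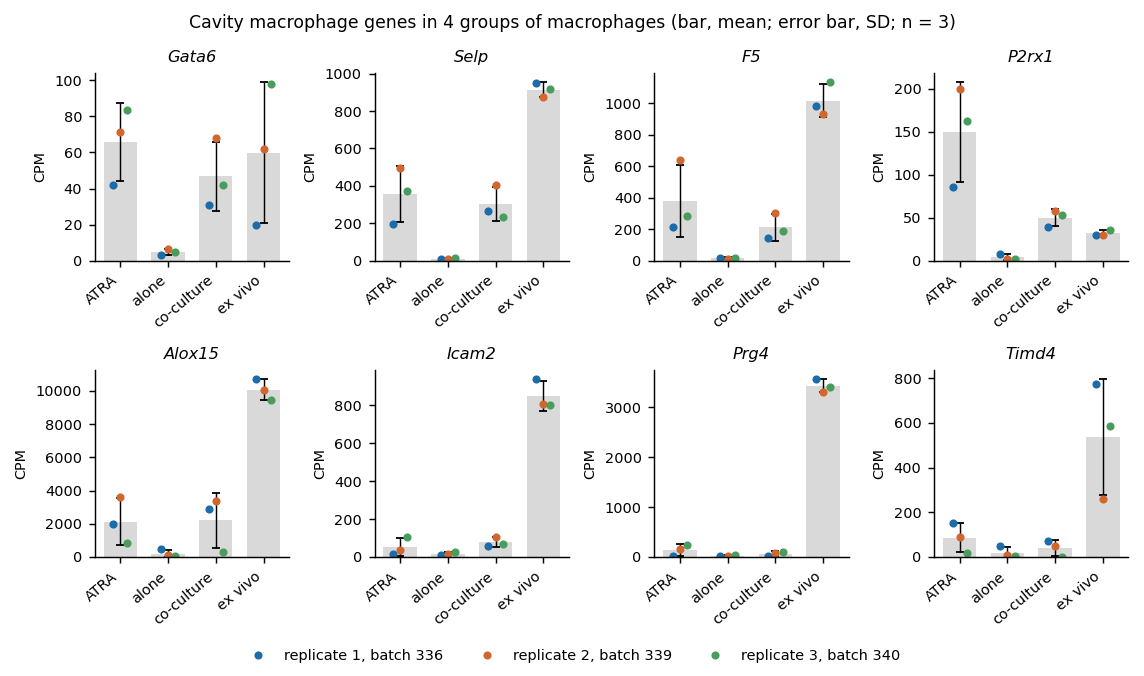
Level in CPM (vertical axes, linear, from 0) of 8 cavity macrophage genes in ATRA, alone, co-culture and ex vivo macrophages; bars are means, error bars SD and points the 3 libraries of each group, coloured by batch. With ATRA, Gata6 averaged 65.8 CPM beside 59.9 CPM ex vivo, whereas Icam2 and Prg4 stayed far below their ex vivo level.

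Few genes told ATRA macrophages from macrophages grown with PDPN+ cells. Between these groups 10 genes were called (0.0563%), 1 of them higher with ATRA (0.00563%) and 9 lower (0.0506%). Of the 50 genes raised over culture alone, edgeR called 0 in this comparison, which uses the same ATRA libraries. A p above the threshold does not show equal levels: the ATRA mean was above the co-culture mean in 44 of the 50, 18 were higher and 1 lower at an unadjusted p under 0.05, and DESeq2 called 10 higher and 1 lower. The 10 calls became 0 without ATRA replicate 2 or co-culture replicate 1 and 207 without batch 340. Gata6 averaged 65.8 ± 21.4 CPM with ATRA and 46.8 ± 19.0 CPM in co-culture (log2 fold change 0.49, SE 0.48). Cyp26a1 averaged 195 ± 130 CPM with ATRA and 9.48 ± 5.89 CPM in co-culture (log2 fold change 4.36, SE 1.07, adjusted p = 0.206). Cst7 averaged 41.4 ± 8.21 CPM with ATRA and 5.79 ± 1.74 CPM in co-culture (adjusted p = 0.289).

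The gene higher with ATRA than in co-culture was Adgre4, a relative of the F4/80 gene (log2 fold change 2.65), and the 9 lower ones were Havcr2, Mapk11, Hyal1, Meg3, Serping1, Mfap5, Tagln, Acta2 and Sod3. Acta2 and Tagln encode smooth muscle actin and a protein that binds it, which are markers of contractile stromal cells. Col1a1, a fibroblast collagen, was at 22.8, 9.91 and 3.58 CPM with ATRA and at 251, 117 and 57.3 CPM in the co-culture macrophages, and the part of stromal RNA in this comparison was not tested. The source name of co-culture replicate 1 carries the other cell type; its title was used, and Adgre1 stood at 2309 CPM in it.

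Other large increases are given by the known role of each gene. Cd55, a brake on complement, had 82.9, 81.1 and 41.2 CPM with ATRA and 20, 5.74 and 3.94 CPM alone (6.93-fold, adjusted p = 0.0471). Fcgr4, an activating receptor for IgG, had 85.1, 229 and 153 CPM with ATRA and 10.1, 32.8 and 32.4 CPM alone (6.19-fold, adjusted p = 0.0123).

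Camkk1, a kinase that activates other calcium-dependent kinases, had 48.3, 35.1 and 24.6 CPM with ATRA, against 0.807 CPM in alone replicate 1 and no count in the other alone libraries (adjusted p = 0.0201). Prkca, protein kinase C alpha, had 9.95, 15.5 and 9.96 CPM with ATRA and 2.86, 1.34 and 2.42 CPM alone (5.36-fold, log2 fold change 2.42, SE 0.32, adjusted p = 0.00323). Tspan18, a tetraspanin of the plasma membrane, averaged 29.1 ± 17.3 CPM with ATRA and 2.18 ± 0.815 CPM alone (13.4-fold, adjusted p = 0.0201). Phf11a rose 6.01-fold (adjusted p = 0.0112). Its neighbour and relative Phf11b, outside the naming rule, rose 3.9-fold (adjusted p = 0.00462), and reads of such close copies may be shared between them.

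Col4a1, a chain of basement membrane collagen, had 8.06, 13.2 and 25.8 CPM with ATRA and 1.46, 0.097 and 0.558 CPM alone (22.6-fold, adjusted p = 0.0265). Its partner chain Col4a2, which starts beside it on the opposite strand, had 6.07, 16.9 and 27.6 CPM with ATRA and 0.807, 0.407 and 1.64 CPM alone, separated but not called (adjusted p = 0.16). Col4a1 was the only one of 18 tested collagen and basement membrane genes to pass, and the list's median was 1.02. The summed level of 12 fibroblast markers was 77.4, 42.8 and 210 CPM with ATRA and 30.9, 16.7 and 271 CPM alone, with Dpt at 0 in both groups and Pdgfrb at 0 alone; its part in the collagen values was not tested.

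Ltbp3, which holds latent TGF-beta in the matrix, had 95, 166 and 111 CPM with ATRA and 11.6, 13.9 and 12.2 CPM alone (9.89-fold, log2 fold change 3.31, SE 0.63, adjusted p = 0.0407). The within-batch differences of 2.98, 3.53 and 3.14 were close to each other. Cst7, cystatin F, an inhibitor of cathepsins, had 33.3, 49.7 and 41.3 CPM with ATRA and 3.13, 1.46 and 0.403 CPM alone (24.9-fold, adjusted p = 0.0407), and was the only one of 16 cystatin and cathepsin genes to rise. Csn3, kappa-casein, had 1.46, 12.2 and 17.4 CPM with ATRA and 0.217, 0.291 and 0.31 CPM alone (37.5-fold, adjusted p = 0.0117).

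Sc5d, a desaturase late in cholesterol synthesis, had 241, 308 and 317 CPM with ATRA and 75.7, 90.0 and 107 CPM alone (3.18-fold, log2 fold change 1.67, SE 0.21, adjusted p = 0.00206). It was the only one of 19 tested cholesterol synthesis genes to pass, and the list's median was -0.0046. Hk2, a hexokinase, was at 55.9, 74.7 and 92.9 CPM with ATRA and at 27.4, 26.5 and 41.1 CPM alone (2.35-fold, adjusted p = 0.0435). It was the only one of 19 tested glycolysis and hypoxia genes to pass, with a list median of 0.24. Within each of the 3 batches 13 of the 19 were higher and 0 lower, against 16.1% and 16.6% of all genes tested. With the batch as a block, Egln3 was called higher as well, as were 0.67% of all genes tested. Gpat3, which takes part in triglyceride synthesis, had 10.5, 21.1 and 12 CPM with ATRA and 1.33, 1.36 and 2.70 CPM alone (8.09-fold, adjusted p = 0.0133).

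**Figure D4:**
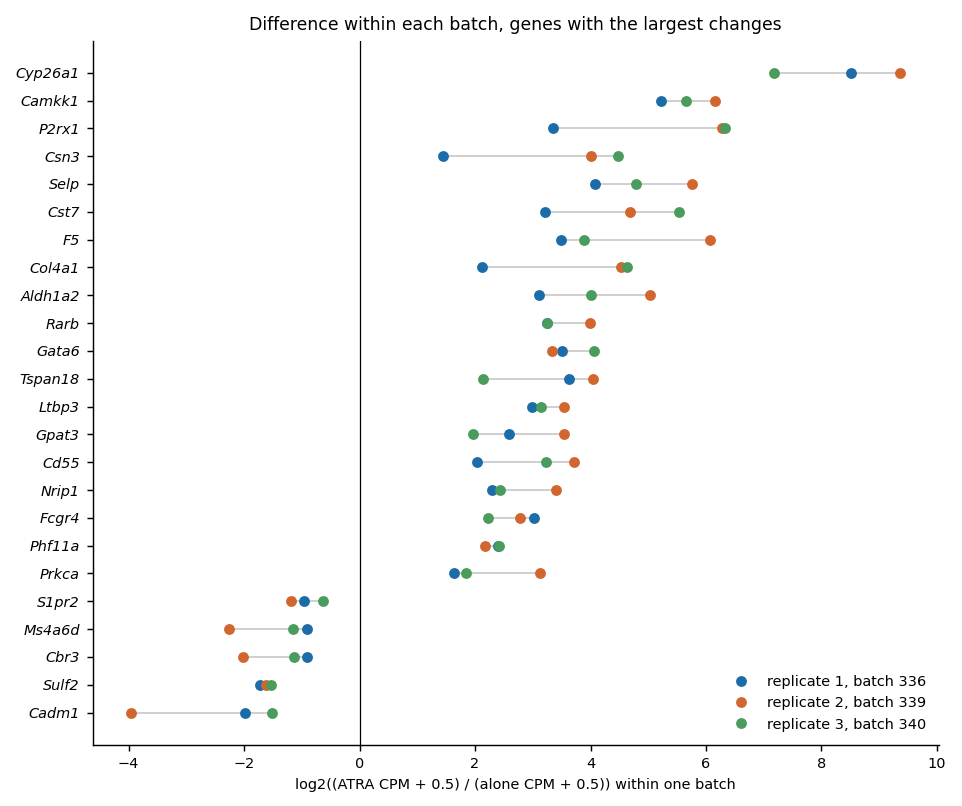
Difference between the ATRA and the alone library of the same batch, log2((CPM + 0.5) / (CPM + 0.5)) on the horizontal axis, for genes with the largest increases and decreases among those described in the text; each point is 1 batch and the grey line joins the lowest and the highest. No point crosses 0, because only genes whose groups did not overlap were taken, and P2rx1 spans 3.35 to 6.34.

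Among the 8 genes that fell with ATRA, Havcr2, the checkpoint receptor TIM-3, was at 2.28, 0.638 and 0.919 CPM with ATRA and at 7.85, 7.24 and 12 CPM alone, 7.03-fold lower (log2 fold change -2.81, SE 0.49, adjusted p = 0.0206). It was the only one of 15 tested inhibitory receptors to fall. Cadm1, an adhesion molecule, was at 8.35, 3.83 and 7.64 CPM with ATRA and at 34.4, 66.8 and 22.9 CPM alone (6.26-fold lower, adjusted p = 0.0494). Sulf2, which trims sulfate from heparan sulfate, was at 9.90, 13.7 and 14.2 CPM with ATRA and at 34.0, 43.1 and 42.1 CPM alone (3.16-fold lower, adjusted p = 0.0457). Its within-batch differences of -1.73, -1.62 and -1.53 were nearly equal. Sulf2 overlaps Ncoa3 on the opposite strand, which had a log2 fold change of 0.66.

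Cbr3, a carbonyl reductase, had 11.5, 12.8 and 14.4 CPM with ATRA and 22.3, 53.3 and 32.1 CPM alone (2.78-fold lower, adjusted p = 0.0457). It was the only one of 17 tested oxidative stress and xenobiotic genes to fall and none rose, but the list's median log2 fold change was -0.59, and 11 of 17 were lower within each of the 3 batches, as were 16.6% of all genes tested. Examples that did not pass are catalase (Cat), at 789, 880 and 416 CPM with ATRA and 1886, 1834 and 727 CPM alone (adjusted p = 0.328), and Gstm1, a glutathione transferase, at 369 ± 74.3 and 694 ± 248 CPM (adjusted p = 0.421). Ms4a6d, a membrane protein of macrophages, was at 193, 120 and 272 CPM with ATRA and at 361, 579 and 605 CPM alone (2.64-fold lower, adjusted p = 0.0486), and may share reads with its close copies. It was 1 of 9 tested Ms4a genes, whose median was -1.33; Ms4a4a, at 23.8 ± 22.1 CPM with ATRA and 194 ± 95.9 CPM alone, did not pass (adjusted p = 0.157).

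S1pr2, a sphingosine 1-phosphate receptor, was at 42.7, 32.2 and 49.2 CPM with ATRA and at 83.6, 73.8 and 77.0 CPM alone (1.89-fold lower, adjusted p = 0.0457), 1 of 14 tested genes of sphingosine and lysophosphatidic acid signalling. Of the 8 genes that fell, 6 were called above the ex vivo level and 2 below it. Over all genes tested, 8.52% were called higher and 6.38% lower than ex vivo. This second comparison uses the same ATRA libraries. S1pr2 averaged 41.4 ± 8.6 CPM with ATRA and 7.86 ± 0.942 CPM ex vivo, and Havcr2 averaged 1.28 ± 0.876 CPM with ATRA and 0.0748 ± 0.0543 CPM ex vivo (adjusted p = 3.03e-06 and 0.000461).

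**Figure D5:**
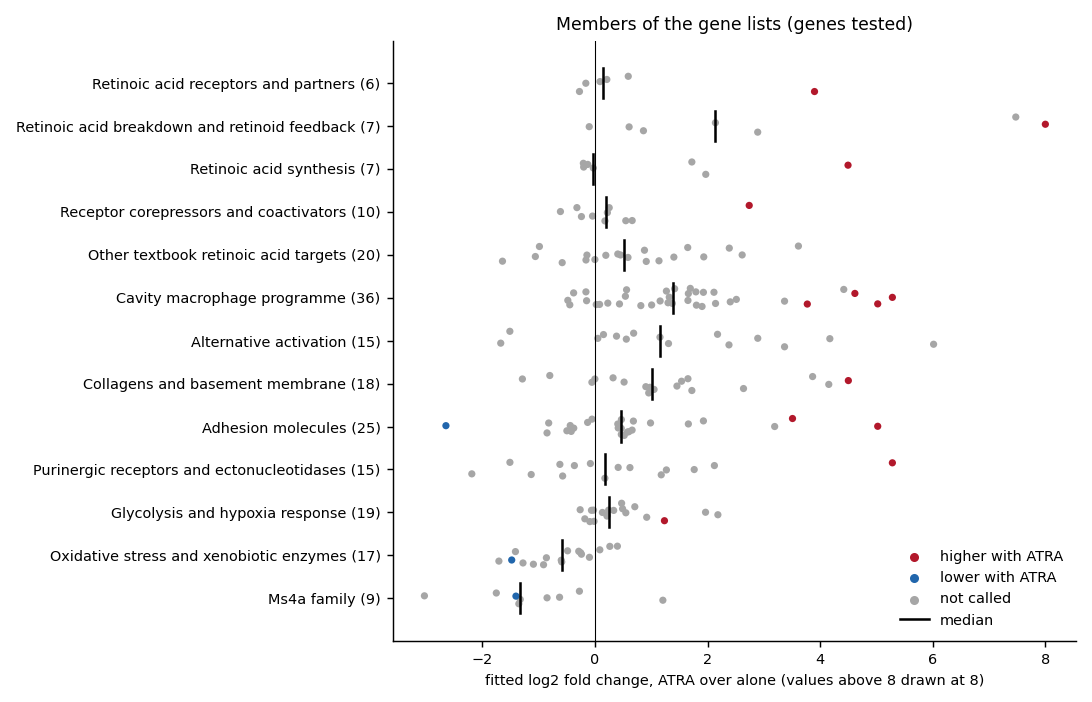
Fitted log2 fold change of ATRA over culture alone (horizontal axis) for the tested members of 13 gene lists (rows, number tested in brackets); red and blue points passed the test, grey points did not and the black bar is the list's median. The cavity macrophage list has its median at 1.4 with 4 members called, and the Ms4a list has its median at -1.33 with 1 member called.

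None of 161 tested genes passed the edgeR test in 10 lists, those of macrophage transcription factors, metalloproteinases, inflammatory cytokines, chemokines, type I interferon response, MHC class II, apoptotic cell uptake, LXR targets, cell cycle or heat shock, with medians between -0.16 and 0.41. Over all genes tested 0.326% were called, and at so small a share 0 calls among 161 genes do not show that these lists were unchanged. At an unadjusted p under 0.05, 3 of them were higher and 2 lower, while 7.6% of all genes tested differed. DESeq2 called 2 of them higher, and 327 genes in either direction over all genes. Alternative activation also had 0 of 15 called by edgeR, with a median of 1.16 and 4 members higher at an unadjusted p under 0.05. DESeq2 called 3 higher, and 3 were called higher with the batch as a block, as were 0.67% of all genes tested. Those called with the block were Alox15, Chil3, a chitinase-like lectin (adjusted p = 0.0307), and Ccl24, an eosinophil attractant (adjusted p = 0.0166). Arg1, the arginase gene of alternatively activated macrophages, was at 1452, 5019 and 10625 CPM with ATRA and at 45.7, 123 and 3610 CPM alone. It was higher within each batch, by 4.98, 5.35 and 1.56, while alone replicate 3 exceeded ATRA replicate 1, and it did not pass (adjusted p = 0.794, and 0.271 with the block).

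With the batch as a block, 85 further genes were called, 69 higher and 16 lower, at adjusted p values of 0.0559 to 0.831 without the block. Ccl24 was at 198, 719 and 2082 CPM with ATRA and at 26.3, 8.01 and 12.1 CPM alone. Hdc, which makes histamine, was at 5.84, 34.0 and 59.8 CPM with ATRA and at 0.248, 0 and 0.869 CPM alone (adjusted p = 0.0195 with the block, 0.12 without). The summed level of 7 mast cell markers was 24.9, 17.7 and 1.69 CPM with ATRA and 7.79, 0.912 and 0.434 CPM alone, with Mcpt4 at 0 in both groups, and their part in the Hdc values was not tested. Aqp9, a channel for water and glycerol, was at 40.7, 70.9 and 59.6 CPM with ATRA and at 0.559, 0.563 and 12.2 CPM alone (adjusted p = 0.0206 with the block, 0.199 without).

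The other increases named with the block were those of Nap1l5, Ubash3a, Prtn3, Col14a1 and Htr2a, with log2 fold changes of 4.72 to 8.45 and adjusted p values of 0.00153 to 0.0428. Decreases with the block included P2ry13, an ADP receptor, at 15.1, 5.47 and 7.51 CPM with ATRA and 57.5, 32.6 and 37.8 CPM alone (adjusted p = 0.00943), and Tgfbi, an adhesive matrix protein, at 41.8, 7.66 and 20.8 CPM with ATRA and 140, 103 and 202 CPM alone (adjusted p = 0.0307). Adora3, an adenosine receptor, was higher with the block (adjusted p = 0.0173). Of 15 tested purinergic genes, 2 thus rose and 1 fell with the block, against P2rx1 as the only call without it. Over all genes tested, 0.67% rose and 0.135% fell with the block. The lectin receptors Clec4a1 and Clec4a3, which are close copies and may share reads, the growth factor gene Pdgfc, Tanc2, Otulinl and Eid1 were the other decreases that the naming rule gave, with adjusted p values of 0.0304 to 0.0472. Of 17 genes that the rule gave as called with the block only, Nap1l5 was the 1 still called with the block whichever library was left out, and 8 were called in a blocked fit of only the 6 libraries. In that fit the adjusted p was 0.0523 for Ccl24, 0.0704 for Aqp9, 0.104 for Col14a1 and 0.124 for Htr2a. With the block and without ATRA replicate 2, it was 0.0679 for P2ry13, 0.0934 for Prtn3 and 0.161 for Tgfbi, and without alone replicate 2 it was 0.128 for Hdc.

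The calls differed in how far they rested on single libraries. Of 29 called genes given by the naming rule, 8 were called whichever of the 6 libraries was left out: Cyp26a1, Rarb, Aldh1a2, Nrip1, Gata6, Selp, Prkca and Sc5d. Leaving out alone replicate 2 gave the highest adjusted p for P2rx1 (0.0503), Camkk1 (0.0823), Phf11a (0.0926), Csn3 (0.102), F5 (0.122), Gpat3 (0.127), Tspan18 (0.166), Ltbp3 (0.206), Cst7 (0.249), Hk2 (0.256), Cadm1 (0.282) and Cd55 (0.295). Leaving out ATRA replicate 2 did so for Fcgr4 (0.0691), Havcr2 (0.115), Sulf2 (0.189), Ms4a6d (0.235), Cbr3 (0.246) and S1pr2 (0.267), and leaving out alone replicate 3 for Col4a1 (0.0837). Ltbp3 and Sulf2 were called in none of the 6 fits. In a fit of only these 6 libraries, Selp and Ltbp3 were the named genes still called (adjusted p = 0.047 for both). With the block in that fit, 22 of the 29 were called, and without batch 340, 18 of the 29.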

How the data were processed

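The deposited tables hold, per the file headers, a count of uniquely aligned reads for each of 50764 gene models, all whole numbers, and an RPKM adjusted by the authors' size factors, which served only to compare scalings (largest absolute log2 difference 0.0461). The submitters' processing notes name GSNAP and GRCm38; the sources used here state no version, annotation or strand setting. Among the 6 libraries, no pair of replicates agreed within sampling noise.

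Genes were tested with edgeR 4.0.16 (R 4.3.3, limma 3.58.1): TMM scaling, the default low count filter by group, 1 quasi-likelihood fit over the 18 macrophage libraries with group as the only factor, and Benjamini-Hochberg adjustment over 17774 genes, called under 0.05. Folds are fitted values, and the SE is the log2 fold change divided by the square root of F. DESeq2 1.42.0, RLE scaling, other sets of libraries and the batch block were alternatives. Scripts were tested on simulated data. CPM use TMM sizes of the 18 libraries, and within-batch differences add 0.5 CPM. Floors cover counting error only. IDs without a symbol, 192 in number with 0.0358% of counts, stayed in the tables and are not named.

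The labels give each replicate number its own processing batch (336, 339 and 340), which pairs the libraries. Deviations from the group means correlated across genes between same-numbered ATRA and alone libraries with r of 0.594, 0.241 and 0.739. For unlike numbers r was 0.202 (ATRA replicate 1, alone replicate 2), 0.414 (ATRA replicate 2, alone replicate 1) and -0.661 to -0.282 in pairs with a replicate 3. ATRA replicate 2 was thus closer to alone replicate 1 than to its own partner, and replicate 3 stood apart.

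The members, gene lists and naming rule were chosen with earlier results of these data known. Named by size were called genes whose groups did not overlap, with a mean of 10 CPM or more in 1 group and a proper symbol, up to 20 higher and 8 lower, of which 5 lower ones existed. Also named were up to 8 genes in each direction called only with the block, called members of 29 gene lists, and a fixed set of uncalled members. Other genes given with values (Cyp26c1, Naip1, Serpinb2, Col4a2, Cat, Gstm1, Ms4a4a, Hoxa5, Hoxb4, Phf11b, Col1a1 and the 10 genes called against co-culture) were chosen after their values were seen. Some genes that met the rule are not reported here. Gene coordinates are from GENCODE on GRCm38, and promoter sequences are from RefSeq (GRCm38.p6).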

Additional observations from a re-analysis of the deposited data

How the results depend on the processing

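The 58 calls between ATRA and culture alone became 143 with the replicate block, 327 with DESeq2, 106 without batch 340, 3 in a fit of the 6 libraries and 110 in that fit with the block. They were 51 with RLE scaling, 57 with no low count filter and 40 with the cultured libraries only. Leaving out 1 library gave 17 to 73, the lowest without alone replicate 2 (17) and ATRA replicate 2 (22), of which 16 and 21 were among the 58. With the block and 1 library left out together, a setting chosen after seeing the data, the calls numbered 113, 39 and 105 without ATRA replicates 1, 2 and 3, and 130, 28 and 97 without alone replicates 1, 2 and 3. All 58 were also called with the block and with DESeq2, and 33 of them in the blocked fit of the 6 libraries and 33 without batch 340. At an unadjusted p under 0.05, 1350 genes differed (7.6%). The 2649 calls against ex vivo became 1062 in a fit of the 2 groups with the block and 1626 to 2581 without 1 library (1713 without ATRA replicate 2, 1626 without ex vivo replicate 2). The 10 calls against co-culture became 0 in the 2-group edgeR fit (931 at an unadjusted p under 0.05), 38 in that fit with the block, 35 with the block, 229 with DESeq2, 3 with cultured libraries only, 207 without batch 340 and 0 to 14 without 1 library, with 0 without ATRA replicate 2 or co-culture replicate 1 (925 and 1104 at an unadjusted p under 0.05), 3 without co-culture replicate 2 and 5 without ATRA replicate 1. The block in the fit of 18 libraries ended no call of a named gene, whereas in the fit of the 6 libraries with the block the named genes above the threshold were Hk2 (0.0517), Prkca (0.0517), Col4a1 (0.0581), Cadm1 (0.0764), Cbr3 (0.0833), Ms4a6d (0.092) and S1pr2 (0.106). For 3 uncalled genes the sign of the log2 fold change turned. Tgfb2 (-0.15) ran from -0.81 to 0.42 without 1 library, turning without ATRA replicate 3 (0.35) and alone replicate 1 (0.42), and with the block to 0.243 and 0.0512 in these fits. Rxra (-0.27) ran from -0.57 to 0.023, turning without ATRA replicate 3 (0.023) and alone replicate 2 (0.012). Cyp26b1 (0.61) ran from -4.15 to 4.78 without 1 library, turning without ATRA replicate 3 (-4.15) and alone replicate 2 (-0.056). It also turned without the whole of batch 340 (-4.68) and with the block without ATRA replicate 3 (-4.31) and alone replicate 3 (-0.0933). The cause of these changes was not tested.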

Other observations

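Several genes that rose with ATRA lie next to each other in the genome, a pattern noticed after the values were seen and given as a description. With coordinates on GRCm38, 11 of the 50 had another gene of the 50 within 100 kb, while 0.959% of 17733 tested genes had one of them that near. The 11 include calls that may share reads, namely Selp with Gm16587, and the close copies Phf11a and Phf11b on chromosome 14. The count was not repeated without them. On chromosome 1, Selp and F5 lie close together on the same strand. Gm16587, an antisense transcript inside Selp, was also called higher, and its reads cannot be told from those of Selp without a strand setting. On chromosome 11, Atp2a3, a calcium pump of the endoplasmic reticulum, P2rx1 and Camkk1 follow each other within 80.9 kb, 3 of 4 tested genes there. Atp2a3 was at 152, 194 and 90.5 CPM with ATRA and at 40.5, 11 and 31.2 CPM alone (5.28-fold, adjusted p = 0.0457, edgeR). On chromosome 9, the transcript Gm32511 and Aldh1a2 were called, 2 of 3 tested genes within 132.4 kb, and Aqp9 was not (adjusted p = 0.199, edgeR). Gm32511 had 4.90, 6.35 and 1.38 CPM with ATRA and no count in any alone library, at least 163-fold higher over a floor of 3 counts for the group, and it overlaps Aqp9 on the opposite strand.

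Of the other genes called higher, 3 outside the lists were singled out after their values were seen. Mcu, the calcium channel of mitochondria, was at 22.4, 31.5 and 34.4 CPM with ATRA and at 10.6, 8.87 and 13.5 CPM alone (2.67-fold, adjusted p = 0.0136, edgeR). Tbxas1, thromboxane synthase, was at 451, 420 and 422 CPM with ATRA and at 246, 256 and 222 CPM alone, a small change with little spread (1.79-fold, adjusted p = 0.0194). Fgfr1, a fibroblast growth factor receptor, was at 84.2, 218 and 257 CPM with ATRA and at 39.7, 29.0 and 49.0 CPM alone (4.75-fold, adjusted p = 0.0115).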
